A study of Rattus norvegicus with 24 samples.

Results

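Annexins A1 to A5, the S100 proteins A6, A10 and A11 and the galectins 1 and 3 were followed in the kidney of rats given lithium. They were 10 genes of the 14324 named on the array (Anxa1 to Anxa5, S100a6, S100a10, S100a11, Lgals1 and Lgals3), chosen by name after values of these arrays had been seen, for a rise with lithium in cortex set against opposite changes in medulla. The comparison of the diets in each tissue is therefore given for them as a description, without a test. Expression was measured in medulla and cortex of 12 male Wistar rats, 6 on lithium and 6 controls. The lithium rats ate food with 40 mmol lithium per kg for 7 days and 60 mmol per kg for the rest of 6 months, and were also given a salt block to keep their sodium balance. The control rats ate a standard diet for 6 months. Water was free for all animals, and their age was not given in the sources used here. The 4 groups were cortex of lithium rats, cortex of control rats, medulla of lithium rats and medulla of control rats, each with 6 arrays.

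Annexins are cytosolic proteins that bind the phospholipids of membranes when calcium rises, and they take part in membrane repair, vesicle traffic and, in the case of annexin A1, in the damping of inflammation. S100 proteins are small calcium sensors that bind other proteins. S100A10, which does not itself bind calcium, forms a complex with annexin A2, and S100A11 binds annexin A1. Galectins bind sugars that carry galactose on glycoproteins of the cell surface and matrix, and galectin-3 is widely used as a marker of kidney injury and fibrosis.

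Promoter sequences of Anxa2, Anxa5 and S100a11 are shown because these genes had no overlap between lithium and control arrays in cortex. They come from RefSeq on build GRCr8, cover 250 bases before and 50 bases after the start of the gene, and stand at chr8:78986002-78986301 on the plus strand, chr2:121272647-121272946 on the minus strand and chr2:181874882-181875181 on the plus strand. They are written 5′ to 3′ along the gene. Capitals mark matches on either strand to the AP-1 site TGANTCA, the TEAD site GGAATG and the GC box GGGCGG.
Anxa2: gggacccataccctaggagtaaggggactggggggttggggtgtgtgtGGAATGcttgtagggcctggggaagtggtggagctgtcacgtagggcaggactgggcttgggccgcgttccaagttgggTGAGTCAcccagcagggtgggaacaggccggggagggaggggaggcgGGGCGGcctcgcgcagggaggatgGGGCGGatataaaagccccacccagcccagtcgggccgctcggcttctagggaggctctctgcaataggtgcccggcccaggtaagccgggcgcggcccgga
Anxa5: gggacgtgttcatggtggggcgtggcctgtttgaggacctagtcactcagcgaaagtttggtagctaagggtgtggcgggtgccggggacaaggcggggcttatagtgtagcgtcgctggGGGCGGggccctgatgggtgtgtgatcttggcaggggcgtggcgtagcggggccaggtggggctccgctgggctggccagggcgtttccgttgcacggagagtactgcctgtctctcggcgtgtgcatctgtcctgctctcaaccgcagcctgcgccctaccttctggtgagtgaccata
S100a11: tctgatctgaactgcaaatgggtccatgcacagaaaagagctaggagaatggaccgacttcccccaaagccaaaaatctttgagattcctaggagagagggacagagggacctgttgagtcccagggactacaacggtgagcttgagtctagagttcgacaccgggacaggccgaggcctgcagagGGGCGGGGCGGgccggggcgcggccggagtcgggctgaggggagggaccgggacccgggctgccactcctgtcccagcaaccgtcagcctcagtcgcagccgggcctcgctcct
Of the 10 genes, 7 had a promoter in the table, and S100a10, Lgals1 and Lgals3 were not among them. The AP-1 letters occurred in 1 of the 7, Anxa2, where the match begins 123 bases before the start, and in 7.34% of 33365 rat promoters of that length. The TEAD letters occurred in 2 of the 7 (Anxa1 and Anxa2) and in 14.2% of all promoters. The GC box occurred in 6 of the 7, all but Anxa1, and in 33.1% of all promoters. In S100a11 both GC boxes overlap by 1 base. A match is a run of letters and was not tested as a binding site.

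The values are log2 signal intensities, so that a difference of 1 is a doubling, and they compare arrays for 1 gene but not genes with each other. Array medians lay between 5.75 and 5.83 in cortex and between 6.12 and 6.22 in medulla. The authors removed scan date from the values of each tissue, and the arrays that shared a scan could be recovered from them. As a result the deviations of the arrays of a scan from their diet means cancel, and an array that stands high lowers the others of its scan. The cortex array of lithium animal 17, alone in its scan, equalled the mean of the other 5 lithium arrays to within 8e-05, and was left out of means and spreads, which leaves n = 5. Of 13 proximal tubule genes, 12 were lower in medulla than in cortex (limma, adjusted p under 0.05), against 10.4% of all clusters. Of 8 thin limb and papilla genes, 6 were higher in medulla, near the share of all clusters, 75.4%, so that nothing is read from this count. The median difference of medulla minus cortex was -3.16 for the first list and 2.49 for the second, against 0.50 over all clusters.

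In cortex, all 10 genes had a higher mean in lithium rats than in control rats, against 52.9% of all 13766 clusters that passed the filter on low values. The median of their log2 fold changes was 0.85, against 0.01 over all clusters. In 4 genes, Anxa2, Anxa5, S100a11 and Lgals3, every lithium array lay above every control array, as in 1.85% of all clusters. These are the values that chose the genes, and nothing is read from the counts. In whole tissue, more cells of a type and more RNA per cell cannot be told apart.

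**Figure D1:**
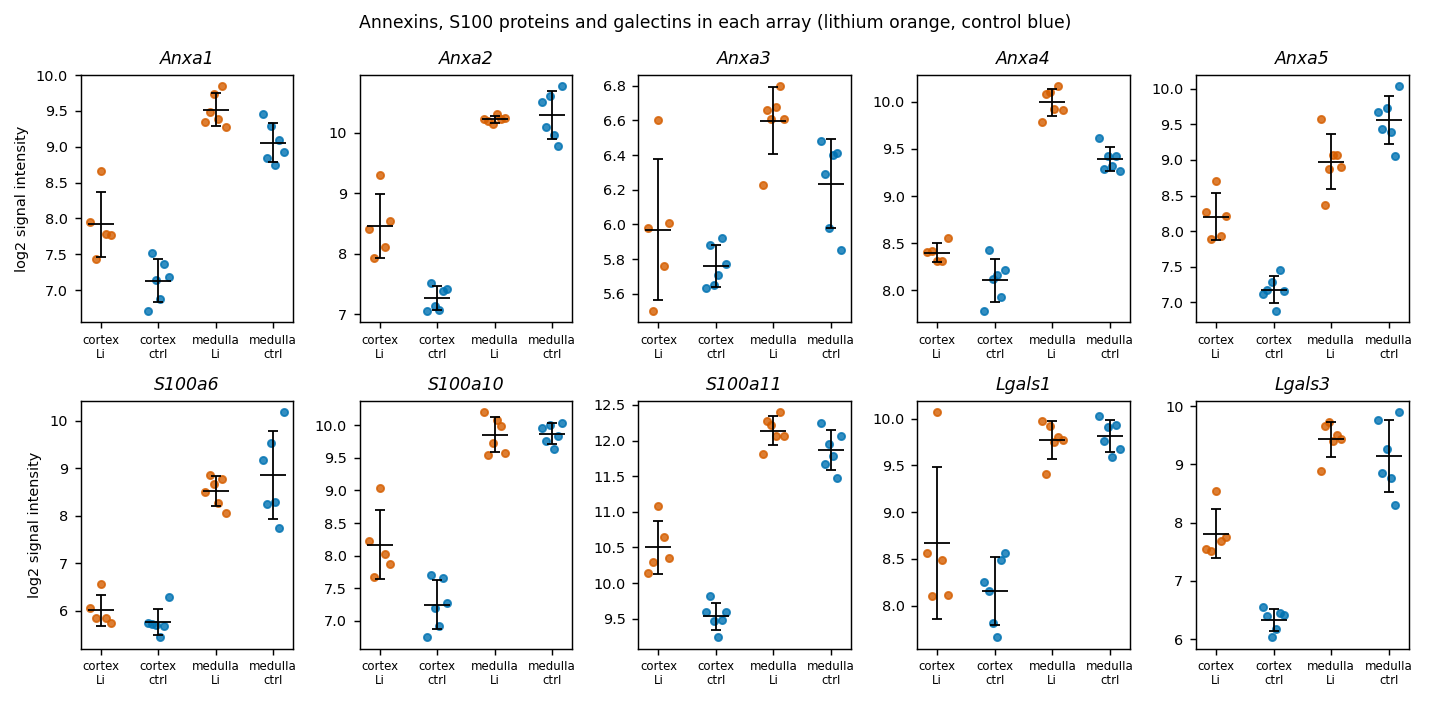
Log2 signal intensity of the 10 genes (vertical axes, each with its own range) on every array, for lithium (orange) and control (blue) rats in cortex and medulla, with mean and SD. The 5 lithium arrays of cortex lie above the 6 control arrays for Anxa2, Anxa5, S100a11 and Lgals3, and the medulla arrays lie above those of cortex for most genes.

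Among the annexins of cortex, Anxa2 encodes the annexin that joins S100A10 at the plasma membrane. Its log2 signal was 8.41, 7.92, 9.31, 8.11 and 8.54 in lithium animals 6, 18, 19, 21 and 22, against a lowest, median and highest value of 7.05, 7.25 and 7.51 in control rats. It averaged 8.46 ± 0.54 in lithium rats and 7.26 ± 0.20 in control rats (SD, n = 5 and 6), and the log2 fold change was 1.20 with a standard error of 0.22. All 5 lithium arrays stood above the controls, with animal 19 the highest. Anxa5, whose protein binds phosphatidylserine and is used to stain dying cells, had 8.27, 7.89, 8.71, 7.93 and 8.21 in the same lithium animals, against 6.88, 7.16 and 7.46 as the lowest, median and highest control value. It averaged 8.20 ± 0.33 in lithium rats and 7.18 ± 0.19 in control rats, and the log2 fold change was 1.02 (standard error 0.16). The groups did not overlap and the lithium array nearest to the controls, of animal 18, was 7.89.

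Anxa1, the annexin linked to glucocorticoid action, had 7.95, 7.43, 8.66, 7.79 and 7.77 in lithium rats, against 6.71, 7.16 and 7.52 as the lowest, median and highest control value. The log2 fold change was 0.78 (standard error 0.22), and only the array of animal 18 lay inside the control range. Anxa4, an annexin of epithelial cells, had 8.41, 8.42, 8.31, 8.31 and 8.55 in lithium rats, against 7.78, 8.14 and 8.43 as the lowest, median and highest control value. The log2 fold change was 0.29 (standard error 0.12), with 1 lithium array above all controls and overlap otherwise. Anxa3 was near the filter on low values, which it did not pass in cortex. Its means were 5.97 ± 0.41 in lithium rats and 5.76 ± 0.12 in control rats, a difference of 0.21 (standard error 0.17) on overlapping arrays.

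Of the S100 genes, S100a10 encodes the partner of annexin A2. It had 8.22, 7.68, 9.04, 8.03 and 7.87 in lithium rats of cortex, against 6.75, 7.23 and 7.70 as the lowest, median and highest control value, and a log2 fold change of 0.92 (standard error 0.25). The groups overlapped by the array of animal 18 alone. S100a11, which lies next to S100a10 on build GRCr8, had 10.14, 10.29, 11.08, 10.65 and 10.35 in lithium rats, against 9.24, 9.53 and 9.82 as the lowest, median and highest control value. The log2 fold change was 0.97 (standard error 0.17), without overlap. A second cluster named for S100a11 gave 6.98 ± 0.40 in lithium rats and 6.30 ± 0.16 in control rats, a difference of 0.68, and 2 more lay below the filter. Whether these clusters share sequence was not tested. S100a6, also called calcyclin, passed the filter on exactly 4 arrays, among them that of animal 17, without which it would not have passed. It was low throughout cortex, with means of 6.00 ± 0.33 in lithium rats and 5.76 ± 0.28 in control rats and a difference of 0.24 (standard error 0.18). Its lithium and control arrays overlapped.

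Lgals3, which encodes galectin-3, had the largest change among the 10 genes. It had 7.54, 7.52, 8.55, 7.68 and 7.76 in lithium rats of cortex, against 6.03, 6.40 and 6.55 as the lowest, median and highest control value. It averaged 7.81 ± 0.43 in lithium rats and 6.33 ± 0.19 in control rats, a 2.78-fold change (log2 1.48, standard error 0.19). The lowest lithium array, at 7.52, stood well clear of the highest control at 6.55. Lgals1, which encodes galectin-1 of stromal cells, had 8.56, 8.10, 10.07, 8.49 and 8.11 in lithium rats, against 7.66, 8.21 and 8.56 as the lowest, median and highest control value. The log2 fold change was 0.51 (standard error 0.34). The array of animal 19 stood far above the rest, animal 6 equalled the highest control to 2 decimals, and the other 3 lithium arrays lay inside the control range.

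Animal 19 was the highest lithium array of cortex for 9 of the 10 genes, and animal 18, of the same scan, was the lowest for 7. Without animal 19, the log2 fold changes were 0.16 for Lgals1, 0.05 for Anxa3 and 0.10 for S100a6, and 1.29 for Lgals3, 0.99 for Anxa2, 0.90 for Anxa5, 0.82 for S100a11, 0.70 for S100a10, 0.60 for Anxa1 and 0.31 for Anxa4. The values of the other arrays of that scan still carry its removal. The mean log2 signal of 9 fibroblast and myofibroblast genes was 9.29 on that array, against 7.60 to 8.12 on the other 4 lithium arrays and 7.31 to 7.94 on the control arrays. The mean of 11 macrophage genes was 8.04 on that array, 6.78 to 7.20 on the other 4 lithium arrays and 6.64 to 7.19 on the control arrays. All 9 and all 11 of these genes had a higher mean in lithium rats of cortex, against 52.9% of all clusters. Their median changes were 0.27 and 0.28. None of them passed the test in cortex with or without scan group (limma, adjusted p under 0.05), with 2 and 1 at an unadjusted p under 0.05. Their part in the changes was not tested. The mean of 7 thin limb and papilla genes was 7.45 to 7.67 on lithium arrays and 7.10 to 7.50 on control arrays of cortex. Of the 7 genes, 6 had a higher mean in lithium rats. None of the 7 passed with scan group, although 1 did without it and 2 had an unadjusted p under 0.05. Of 9 collecting duct genes in cortex, 1 rose (Aqp4, a water channel) and 4 fell (Aqp2, Scnn1b, Scnn1g and Hsd11b2), against 0.465% and 0.109% of all clusters, with list means of 7.54 to 8.15 on lithium arrays and 7.90 to 8.55 on control arrays. The part of these lists in the changes was not tested. The neutrophil markers S100a8 and S100a9, of the same protein family, were low in cortex, at 3.40 and 4.59 in lithium rats and at 3.29 and 4.56 in control rats, and none of 8 neutrophil genes passed the filter.

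Within the 3 scans of cortex that held both diets, 8 of the 10 genes were higher in lithium rats each time. The values are those that chose the genes, the share of all clusters was not counted, and nothing is read from this count. Lgals3 differed by 1.07, 1.93 and 1.29 in the scans of lithium animal 6, of animals 18 and 19, and of animals 21 and 22, Anxa2 by 1.13, 1.51 and 0.93, and Anxa5 by 1.12, 1.22 and 0.76. The exceptions were Lgals1, with 0.36, 1.35 and -0.23, and S100a6, with 0.31, 0.63 and -0.19. In medulla the differences of Anxa5 were -0.58, -0.59 and -0.57 and those of Anxa4 were 0.48, 0.64 and 0.69.

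**Figure D2:**
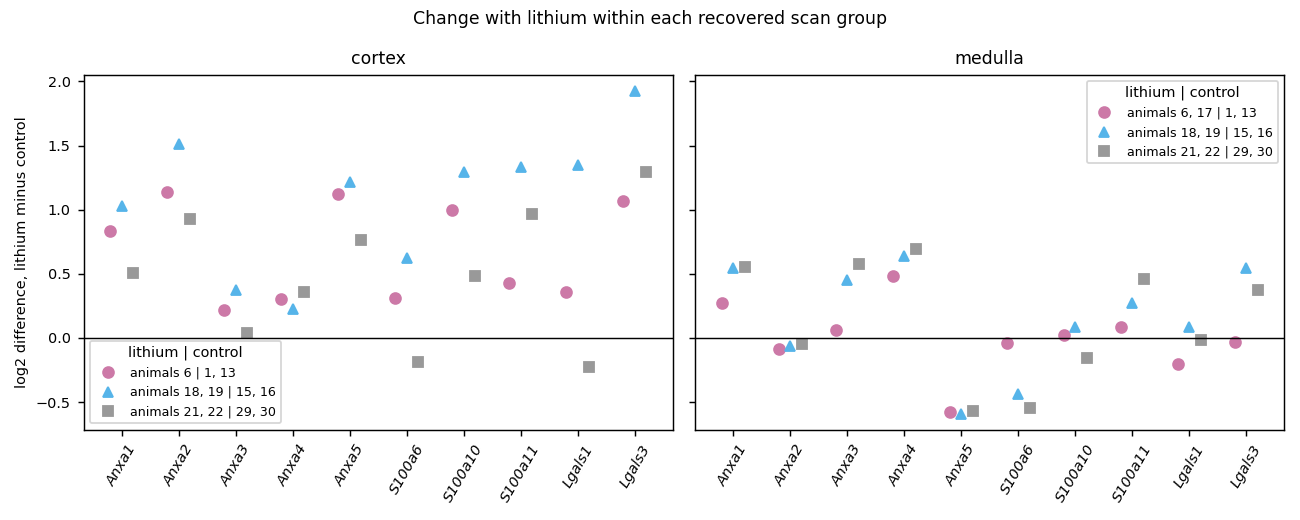
Difference of lithium minus control in log2 signal (vertical axis) for the 10 genes within each scan group, in cortex (left) and medulla (right), with the animals of each group in the legend. Lgals1 and S100a6 lie below 0 in the cortex scan of lithium animals 21 and 22, and Anxa5 lies close to -0.58 in every scan of medulla.

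In medulla, 5 of the 10 genes had a higher mean in lithium rats (Anxa1, Anxa3, Anxa4, S100a11 and Lgals3) and 5 a lower mean (Anxa2, Anxa5, S100a6, S100a10 and Lgals1), against 48.4% of all 16025 clusters with a higher mean. After repeated quantile normalization only 3 of the 5 stayed lower, since S100a10 turned to 0.05 and Lgals1 to 0.02, and with each animal left out in turn the changes ran from -0.17 to 0.03 for Anxa2, from -0.08 to 0.04 for S100a10 and from -0.09 to 0.03 for Lgals1. The median log2 fold change was 0.13, against -0.01 over all clusters. Anxa4 alone of the 10 genes had every lithium array above every control array, as had 2.12% of all clusters. Its lowest, median and highest values were 9.79, 10.00 and 10.17 in lithium rats and 9.27, 9.37 and 9.62 in control rats, and the change was 0.60 on the log2 scale (standard error 0.10). Anxa1 had 9.28, 9.44 and 9.85 in lithium rats and 8.74, 9.01 and 9.46 in control rats, and its change was 0.46 on the log2 scale (standard error 0.15), where 3 of 6 lithium arrays lay above all controls. Anxa3 differed by 0.36 (standard error 0.14), with 5 of 6 lithium arrays above all controls and animal 6 at 6.23.

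Anxa5 had the most negative change in medulla among the 10 genes. Its lowest, median and highest values were 8.37, 8.98 and 9.58 in lithium rats and 9.06, 9.56 and 10.04 in control rats, and it averaged 8.98 ± 0.39 in lithium rats and 9.56 ± 0.33 in control rats (SD, n = 6 each). The log2 fold change was -0.58 (standard error 0.21). In 3 of 6 lithium arrays the value lay below all controls, and animal 6 held the highest lithium value. S100a6 had 8.06, 8.58 and 8.85 in lithium rats and 7.74, 8.74 and 10.18 in control rats, a difference of -0.34 (standard error 0.38). All lithium arrays lay inside the control range. The values of the control animals 1, 15 and 30 were 9.18, 9.52 and 10.18, above those of 13, 16 and 29 at 8.24, 8.29 and 7.74. The same 3 control animals were the highest for Lgals3 (9.76, 9.26 and 9.90, against 8.85, 8.77 and 8.30), Anxa2, Anxa5, S100a10 and S100a11. They were not for Anxa1, Anxa3, Anxa4 and Lgals1. The mean of 8 thin limb and papilla genes was 9.72, 9.57 and 9.81 in these 3 animals and 9.39, 9.67 and 9.21 in animals 13, 16 and 29. The mean of 13 proximal tubule genes was lower in the same 3 animals, at 7.99, 7.96 and 7.73, against 8.34, 8.41 and 8.95 in animals 13, 16 and 29, and that of 10 collecting duct genes was higher, at 10.22, 9.70 and 9.60 against 9.27, 9.55 and 9.41. The proximal tubule and collecting duct means did not overlap between the 3 animals and the other 3. Those of thin limb and papilla, macrophage, and fibroblast and myofibroblast genes did. The 3 animals were set apart after their values had been seen, the share of all clusters was not counted, and nothing is read from this. Animals 1 and 13, 15 and 16, and 30 and 29 shared a scan, whose removal ties their values. The part of the lists in the spread was not tested.

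The other medulla differences lay within 2 standard errors of 0. Anxa2 differed by -0.07 (standard error 0.17) and S100a10 by -0.02 (0.14), Lgals1 by -0.04 (0.12), S100a11 by 0.27 (0.15) and Lgals3 by 0.30 (0.27). S100a11 was higher in lithium rats within each of the 3 scans, by 0.09, 0.27 and 0.46. The lithium arrays of Anxa2 were tightly placed, at 10.14 to 10.31, inside a control range of 9.78 to 10.78. The mean of the thin limb and papilla genes was 8.73 to 9.24 on lithium arrays and 9.21 to 9.81 on control arrays of medulla, and 1 of the 8 (Ptgs2) fell, against 0.356% of all clusters. The mean of 13 proximal tubule genes was 7.12 to 8.16 on lithium arrays and 7.73 to 8.95 on control arrays of medulla, and none of the 13 passed the test with scan group, although 2 did without it and 7 had an unadjusted p under 0.05. The mean of 13 macrophage genes was 7.45 to 8.12 on lithium arrays and 6.34 to 7.61 on control arrays, and 3 of the 13 (Cd68, C1qa and Mrc1) rose, against 0.830% of all clusters. Of 5 endothelial genes, 1 fell (Emcn, -0.91, limma, adjusted p = 0.0462), against 0.356% of all clusters. The median change was -0.60 for these 5 and -1.03 for 6 thick limb and distal genes, of which none passed. It was 0.21 for 9 fibroblast and myofibroblast genes, -0.11 for 10 collecting duct genes and 0.61 for 3 red cell genes, none of which passed. The part of these lists in the values was not tested.

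Set side by side, the genes did not all change in opposite directions. Of the 10, 5 were higher in cortex and lower in medulla by mean, as were 27.7% of the 13403 clusters kept in both tissues, and 5 were higher in both, as were 25.8%. The first count was 3 after repeated quantile normalization. Only Anxa5 had a difference of more than 0.5 in each direction, at 1.02 in cortex and -0.58 in medulla. With its sign, the change was higher in cortex than in medulla for 8 of the 10, and the exceptions were Anxa3 (0.21 in cortex and 0.36 in medulla) and Anxa4 (0.29 in cortex and 0.60 in medulla). S100a6, at 0.24 in cortex and -0.34 in medulla, had the larger change by size in medulla.

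**Figure D3:**
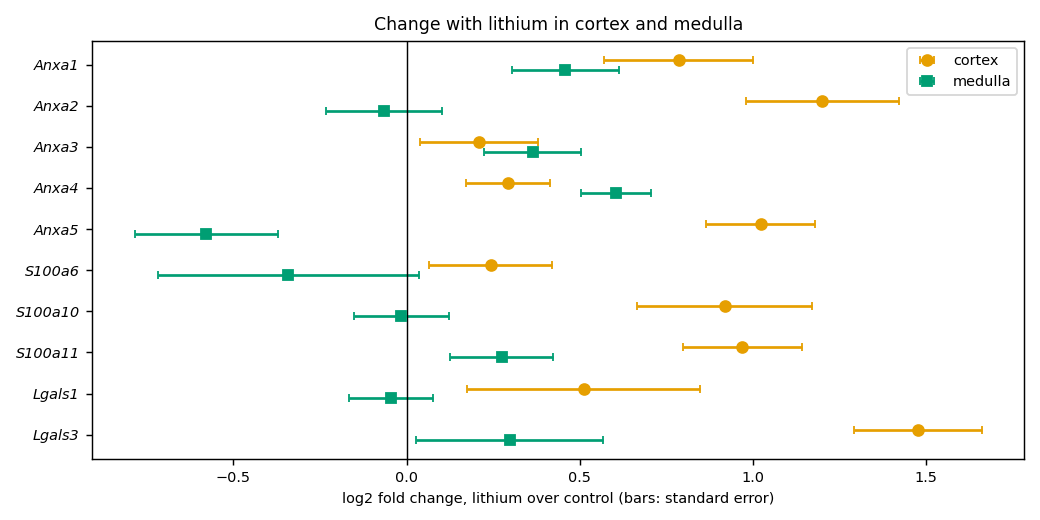
Log2 fold change of lithium over control (horizontal axis) for each of the 10 genes in cortex (circles) and medulla (squares), with standard errors of the fit with scan group. Cortex lies right of 0 for all 10, with Lgals3 at 1.48, and medulla lies left of 0 for Anxa2, Anxa5, S100a6, S100a10 and Lgals1, of which S100a10 and Lgals1 turn to the right of 0 after repeated quantile normalization.

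The mean difference between the tissues over both diets was not used to choose the genes and was tested. Scan date had been removed in each tissue separately, and array medians did not overlap between the tissues. A difference of tissue therefore cannot be told apart from one of processing, and centring the arrays takes out only a common shift. All 10 were higher in medulla than in cortex (limma, adjusted over 16388 clusters), as were 75.4% of all clusters, beside array medians that ran higher in medulla. These clusters had passed the filter in either tissue. Anxa3 passed in medulla alone, where it is higher, so that the filter favoured its direction, as it did for other such clusters. With all arrays centred on a common median, 9 of the 10 passed, against 43.8% of all clusters, and Anxa3 did not (0.17, adjusted p = 0.137). The median difference was 1.87 for the 10 genes and 0.50 for all clusters, and with centred arrays 1.49 for the 10 genes and 0.12 for all clusters. S100a6 was 2.81 higher in medulla (standard error 0.21, adjusted p = 2.01e-11), Anxa2 2.40 (0.13, 1.53e-13), Lgals3 2.22 (0.16, 1.46e-11) and S100a10 2.15 (0.14, 1.54e-12). This fit took the arrays as independent and had no scan group. With arrays paired by animal, the adjusted p of these 4 genes was 9.0e-09, 3.2e-09, 2.5e-08 and 2.8e-09 (limma). Lower differences were those of S100a11 at 1.99, Anxa1 at 1.76, Anxa5 at 1.58, Anxa4 at 1.44, Lgals1 at 1.38 and Anxa3 at 0.55. In the same animal, medulla was above cortex in 11 of 11 animals for 9 genes and in 10 of 11 for Lgals1, where animal 19 had a difference of -0.33.

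Under lithium the tissues stood closer for 8 of the 10 genes, which restates the changes given before. For Anxa5 the difference between medulla and cortex was 0.78 in lithium rats and 2.38 in control rats. For Anxa2 it was 1.77 in lithium rats and 3.03 in control rats, for Lgals3 1.63 in lithium rats and 2.81 in control rats, and for S100a10 1.69 in lithium rats and 2.62 in control rats. The animals of the groups did not overlap for 3 genes, for S100a10 only narrowly. The share of all clusters without such overlap was not counted, and nothing is read from this count. Anxa5 had 0.36 to 1.31 in lithium rats and 1.61 to 2.88 in control rats, Anxa2 had 1.00 to 2.23 in lithium rats and 2.40 to 3.48 in control rats, and S100a10 had 1.04 to 2.05 in lithium rats and 2.06 to 3.20 in control rats. For Anxa4 the difference was wider with lithium, at 1.60 in lithium rats and 1.28 in control rats.

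**Figure D4:**
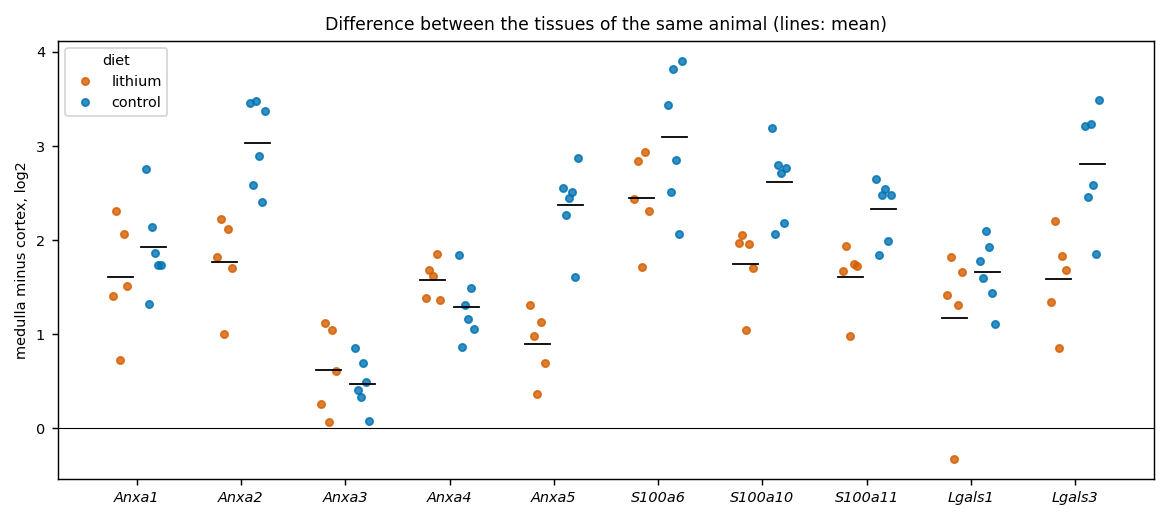
Medulla minus cortex in log2 signal (vertical axis) in each of 5 lithium (orange) and 6 control (blue) animals for the 10 genes, with the mean of the plotted animals as a line. Control animals lie above lithium animals for Anxa2, Anxa5 and, narrowly, S100a10, and the lowest point of Lgals1 is lithium animal 19 at -0.33.

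Other genes of the 3 families were taken by name, 28 in all, of which 25 were on the array. In cortex 0 of 11 tested passed in the fit with scan group, against 0.574% of all clusters, and 1 had an unadjusted p under 0.05. Without scan group 1 of the 11, Anxa7, rose, against 1.50% of all clusters. That fit counts the array of animal 17, and without it as well Anxa7 had an adjusted p of 0.0326 (limma). Anxa7, an annexin of secretory vesicles, had 6.29 ± 0.18 in lithium rats and 5.78 ± 0.17 in control rats, a difference of 0.51 with no overlap of arrays (limma with scan group, adjusted p = 0.135). Anxa6, Anxa11 and S100a1 differed by 0.15, -0.06 and 0.01. In medulla 1 of 12 tested fell, against 0.356% of all clusters, and 10 of the 12 had a lower mean in lithium than in control rats, with a median change of -0.27 over the 12. The gene was Lgalsl, the galectin-like protein, with 7.62 ± 0.22 in lithium rats and 8.22 ± 0.13 in control rats (log2 fold change -0.60, standard error 0.12, adjusted p = 0.0399), a call lost without the filter and when animals were left out in turn, for 10 of the 12. Anxa8 (-0.85, adjusted p = 0.161), S100a4, a marker of fibroblasts and leukocytes (-0.85, adjusted p = 0.373), and S100a1 (-0.42, adjusted p = 0.295) did not pass. Of 14 such genes tested between tissues, 11 were higher and 3 lower in medulla than in cortex, against 75.4% and 10.4% of all clusters. Anxa8, S100a4 and Lgals5, all higher in medulla, had passed the filter in medulla alone. S100g and Lgals2, both lower in medulla, had passed in cortex alone. The filter favoured these directions, and nothing is read from the counts.

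Genes whose products bind the annexins, S100 proteins or galectins, or are handled by them, were listed in the same way. In cortex 1 of 11 tested rose (0.465% of all clusters), Cd44, the receptor for hyaluronan, with 6.56 ± 0.32 in lithium rats and 5.33 ± 0.20 in control rats and no overlap (log2 fold change 1.24, standard error 0.16, adjusted p = 0.00352). The lithium array of animal 19 was highest, at 7.12. In medulla 3 of 13 rose (0.830% of all clusters). Trpv5 and Trpv6, calcium channels of the distal nephron that the annexin A2 and S100A10 complex carries to the membrane, changed by 2.55 (standard error 0.34, adjusted p = 0.00685) and by 1.61 (0.20, adjusted p = 0.00514), and Cd44 by 1.14 (0.20, adjusted p = 0.0229). The call of Cd44 in medulla was lost for 6 of the 12 animals left out in turn. Trpv5 had 7.53 ± 0.67 in lithium rats and 4.98 ± 0.55 in control rats of medulla. Cd44 in cortex and Trpv5 and Trpv6 in medulla passed the filter through their lithium arrays, with controls up to 5.64, 5.62 and 6.02. Without the filter their adjusted p was 0.00766, 0.00853 and 0.00632 (limma). Cd44 was also among the genes that the authors had reported from these arrays. Nothing is read from the counts of partner genes. The change in Trpv5 was 2.17 larger in medulla than in cortex (standard error 0.41, adjusted p = 0.0462), a difference called in 0.0915% of all clusters, while the difference for Cd44 did not pass (-0.10, standard error 0.27, adjusted p = 0.903). Plat, the tissue plasminogen activator, had 8.85 ± 0.33 in lithium rats and 10.04 ± 0.75 in control rats of medulla (log2 fold change -1.19, adjusted p = 0.0914), and did not pass.

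Over the 24 arrays, after centring each tissue, the 5 named genes nearest to the mean of the 10 genes by root mean square difference, among 9644, were Lxn (0.14), Crip2 (0.14), Cyria (0.15), Pde5a (0.15) and Sh2d4a (0.17), against a median of 0.40 over all. The 10 genes themselves lay at 0.17 (S100a11) to 0.43 (S100a6) from their mean. The log2 fold change of Lxn was 0.50 in cortex and 0.18 in medulla, that of Crip2 0.59 in cortex and 0.07 in medulla, that of Cyria 0.49 in cortex and 0.04 in medulla, that of Pde5a 0.72 in cortex and 0.33 in medulla, and that of Sh2d4a 0.51 in cortex and 0.19 in medulla. Genes picked for nearness to this mean share its rise in cortex by construction.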

How the data were processed

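Cortex and medulla of 12 rats were measured on 24 arrays. The values are log2 intensities of 28894 clusters as deposited, which the authors made by RMA, quantile normalization and median polish in Partek, with scan date removed. The submitters' processing notes name rn4. The groups of arrays sharing a scan were recovered from the values, since the labels hold no scan date. The filter kept clusters that reached log2 6 in 4 or more of the 12 arrays of a tissue. Limma 3.58.1 in R 4.3.3 fitted diet and scan group in each tissue with Benjamini-Hochberg adjustment (threshold 0.05), after a test on simulated data. The tissue difference was fitted over 23 arrays without scan group. The gene's cluster was that with the highest mean over the 24 arrays. Alternatives left out the scan group, an animal or the filter, recentred or renormalized the arrays, or paired arrays by animal. The pairing comes from the labels, and over 11 animals the correlation of the deviations in the 2 tissues ran from -0.0867 to 0.438, over 0.1 in 6. Named genes were the 10 genes, the passing or 4 largest changes of each list, and the 5 nearest genes. The genes and lists were chosen with earlier results of these data known. The number of arrays limits the precision.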

Additional observations from a re-analysis of the deposited data

Results flagged for a closer look

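Of 56 groups of arrays examined for a value standing apart from the rest, 7 passed the critical value, where chance gives about 1 in 20 for independent values. The groups reuse the same arrays, and the removal of scan date ties arrays to each other. The count is therefore not set against that rate. In cortex of lithium rats, animal 19 stood apart for Lgals1 (10.07), Lgals3 (8.55), Cd44 (7.12) and Lgalsl (8.06, the lowest). Other such values were Anxa3 in medulla of lithium animal 6 (6.23), S100a6 in cortex of control animal 30 (6.28) and Lgalsl in cortex of control animal 15 (8.75). The change with lithium differed between the tissues for Trpv5 (2.17, medulla minus cortex) by the test of the difference. For Anxa5 it was -1.60, a contrast that chose the gene, so that nothing is read from it.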

How the results depend on the processing

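Without scan group, calls over all clusters were 288 in cortex (79 with it), 1052 in medulla (190) and 357 for the tissue difference of the change (15), and those among family and partner genes 4 in cortex (1) and 7 in medulla (4). Without scan group and without the array of animal 17, chosen after seeing the data, they were 152 in cortex and 2 among family and partner genes. With all arrays on a common median, the tissue difference gave 9. The cause was not tested. Leaving out each replicate in turn gave 34 to 92 calls in cortex, 50 to 1053 in medulla, 5 to 57 for the tissue difference of the change, and 2 to 7 among family and partner genes in medulla. The 1053 calls were without lithium animal 6. In medulla, Cd44 lost its call in 6 of 12 of these fits, and Lgalsl in 10 of 12, without the filter (adjusted p = 0.0508) and after repeated quantile normalization (0.0512). With the animal as replicate block, 20 clusters differed between tissues in their change, and the Trpv5 adjusted p was 0.0233. All 10 genes stayed higher in medulla in the paired fit. The median change of the 10 genes was 0.65 to 0.97 in cortex and 0.05 to 0.18 in medulla when each replicate was left out. The changes of Anxa3, S100a6 and Lgals1 in cortex, and of Anxa2, S100a6, S100a10, S100a11, Lgals1 and Lgals3 in medulla, lay within 2 standard errors of 0. These arrays do not fix their direction. This is no test of the remaining changes of the 10 genes, since the same values chose the genes.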
